A study of Mus musculus with 2 samples.

Results

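Isolated DNaseI hypersensitive sites (DHS) are stretches of accessible chromatin that have no other DHS within 50 kb on either side. They were selected by their positions alone, as the peaks of chromosomes 1 to 19 whose gaps to the previous and to the next peak of the chromosome were both at least 50 kb. Of 46610 DHS on these chromosomes, 1684 met this rule, which is 3.61%, and the whole list held 47542. The cells were splenic B cells of 8 weeks old C57/Bl6 mice with both Trp53 alleles intact (Trp53+/+) that had been mock treated. They were enriched on magnetic beads through the B cell surface antigen B220, so that a minority of other spleen cells could be present. All values come from 1 DNaseI library, with no replicates, and a second library of input DNA was not used here. The number of mice is not given in the sources used here. The sequencing depth is unknown, so a DHS may be missing from the list where reads were too few. As a check of the label, 12 of 12 B cell marker genes had a DHS at the promoter, against 4 of 12 T cell, 4 of 7 myeloid and 2 of 5 erythroid marker genes. Over all protein-coding genes the share was 57.9%, and the housekeeping and p53 target lists were also complete, so the check rests on the T cell list falling below that share and the B cell list above it. These lists are short and no interval was computed on these counts, so the check is weak.

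DNaseI cuts DNA where nucleosomes are displaced, which happens at the start sites of active genes, at enhancers and at sites held by the architectural protein CTCF. Enhancers of a cell type often come in groups around the genes they serve, whereas the promoters of widely used genes and CTCF sites can also stand alone. CTCF is a zinc finger protein that blocks or anchors chromatin loops, and its binding site is a long, specific sequence that can be recognised in the DNA.

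The sequences of 6 isolated DHS with the highest scores of their kind are shown, and they are not typical of the members. Each is the central 300 bp of the DHS on mm9, plus strand, read from the reference genome. The first 3 are the distal isolated DHS with the highest scores, where distal means outside the window that starts 5 kb before and ends 2 kb after any transcription start site (TSS).

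chr13:91510432-91510731 (distal, exon of A830009L08Rik): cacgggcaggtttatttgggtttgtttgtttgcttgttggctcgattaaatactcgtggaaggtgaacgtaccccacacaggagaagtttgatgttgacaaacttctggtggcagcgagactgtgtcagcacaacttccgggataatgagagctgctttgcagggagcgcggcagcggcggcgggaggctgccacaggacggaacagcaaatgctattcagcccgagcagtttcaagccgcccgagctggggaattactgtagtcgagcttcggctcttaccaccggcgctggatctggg

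chr11:108873044-108873343 (distal, near Gm11668): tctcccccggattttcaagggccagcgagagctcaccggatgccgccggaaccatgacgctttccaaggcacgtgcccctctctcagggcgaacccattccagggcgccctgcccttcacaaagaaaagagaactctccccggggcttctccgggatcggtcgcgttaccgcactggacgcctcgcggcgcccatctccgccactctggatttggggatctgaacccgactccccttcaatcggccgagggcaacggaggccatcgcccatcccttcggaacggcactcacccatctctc

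chr19:8094294-8094593 (distal, nearest protein-coding gene Slc22a27): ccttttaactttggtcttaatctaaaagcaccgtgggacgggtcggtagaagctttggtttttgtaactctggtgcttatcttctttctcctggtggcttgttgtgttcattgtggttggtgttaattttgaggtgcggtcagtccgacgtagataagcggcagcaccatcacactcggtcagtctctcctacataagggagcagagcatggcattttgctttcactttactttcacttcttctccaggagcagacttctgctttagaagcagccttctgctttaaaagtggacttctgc

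The next is the promoter isolated DHS with the highest score, which holds many CpG dinucleotides.

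chr17:39982705-39983004 (promoter, AY036118): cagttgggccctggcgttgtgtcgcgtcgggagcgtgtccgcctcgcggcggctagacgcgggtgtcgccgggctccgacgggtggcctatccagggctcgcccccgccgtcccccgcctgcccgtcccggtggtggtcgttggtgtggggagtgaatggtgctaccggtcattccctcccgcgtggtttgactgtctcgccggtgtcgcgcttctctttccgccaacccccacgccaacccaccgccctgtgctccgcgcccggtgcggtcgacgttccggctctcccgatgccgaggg

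The last 2 are the highest-scoring isolated DHS with an exact match to the 12-letter core word of CTCF. The match is on the minus strand in both and is set in capitals.

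chr12:71926388-71926687 (Frmd6): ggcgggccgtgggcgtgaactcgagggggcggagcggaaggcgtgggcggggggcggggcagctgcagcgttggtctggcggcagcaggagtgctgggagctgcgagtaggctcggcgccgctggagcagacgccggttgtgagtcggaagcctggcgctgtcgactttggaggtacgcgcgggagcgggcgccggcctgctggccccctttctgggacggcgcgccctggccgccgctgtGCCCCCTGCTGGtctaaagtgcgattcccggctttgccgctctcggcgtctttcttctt

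chr8:20020167-20020466 (2610005L07Rik): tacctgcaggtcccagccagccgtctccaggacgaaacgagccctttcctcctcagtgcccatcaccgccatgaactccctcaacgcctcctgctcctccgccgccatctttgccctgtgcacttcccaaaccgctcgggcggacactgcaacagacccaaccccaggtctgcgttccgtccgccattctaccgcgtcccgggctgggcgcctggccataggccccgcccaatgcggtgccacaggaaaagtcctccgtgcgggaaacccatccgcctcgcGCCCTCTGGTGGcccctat

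The windows at AY036118 and Frmd6 both had a GC content of 72.0%, and held 41 and 36 CpG dinucleotides. The window near Slc22a27 had 46.0% GC and 8 CpG. In that window 31.5% of the 31-base words occurred more than once in the assembly, against 0% at A830009L08Rik, Gm11668 and AY036118.

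Long gaps were common in the B cell DHS map and held most of the genome. Of 46591 gaps between neighbouring DHS, 6532 (14.02%) were at least 50 kb long, and together they spanned 1958 Mb, or 79.2% of the length of these chromosomes. Of the sequenced bases, 58.4% lay 50 kb or more from any DHS. The isolated DHS covered only 1.59 Mb. Their nearer neighbour was at a median of 82.5 kb (quartiles 61.3 and 135 kb) and the farther one at a median of 231 kb. A nearer gap of at least 100 kb was found for 642 of them, of at least 200 kb for 257 and of at least 1 Mb for 17. An assembly gap, meaning at least 1000 unsequenced bases within 50 kb, was present at 15 isolated DHS. The members nearest to the threshold were a DHS in an intron of Nav2 with a gap of 50.025 kb, one at the promoter of 5830418K08Rik with 50.095 kb and one at the promoter of 9430091E24Rik with 50.127 kb. Just outside it were a DHS near Mobp with 49.926 kb and the promoters of Slc38a8 with 49.922 kb and Secisbp2l with 49.851 kb.

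**Figure D1:**
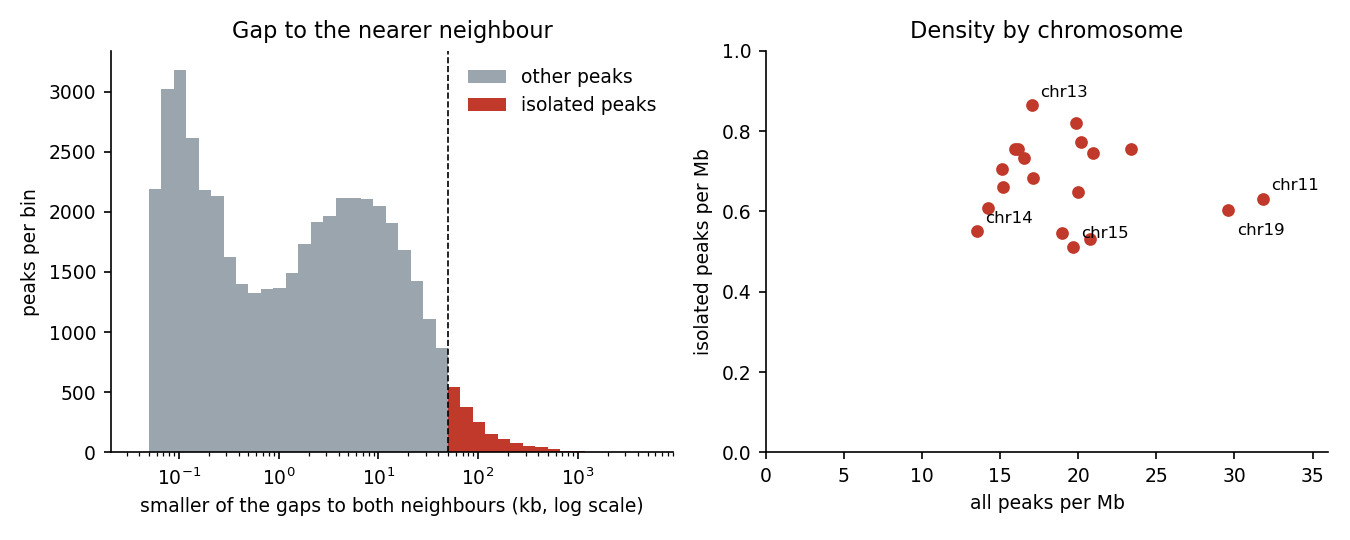
Left, number of DHS on chromosomes 1 to 19 by the smaller of the gaps to both neighbours (kb, log scale), with isolated DHS in red to the right of the 50 kb threshold (dashed line) and all others in grey. Right, isolated DHS per Mb against all DHS per Mb, each point a chromosome; the first ranged from 0.512 to 0.865 while the second ranged from 13.5 to 31.8.

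The density of isolated DHS did not follow that of all DHS on the 2 chromosomes with the most DHS per Mb. It ran from 0.512 per Mb on chromosome 15 to 0.865 per Mb on chromosome 13, with a median of 0.683, while all DHS ran from 13.5 per Mb on chromosome 14 to 29.6 on chromosome 19 and 31.8 on chromosome 11, and to at most 23.4 elsewhere. Chromosomes 19 and 11 had 0.603 and 0.632 isolated DHS per Mb. The share of DHS that were isolated was therefore lowest on chromosome 11 (77 of 3879, 1.98%, 95% interval 1.59 to 2.47%) and highest on chromosome 13 (104 of 2051, 5.07%, 4.2 to 6.11%). Intervals on shares are Wilson intervals throughout and cover counting error only.

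Isolated DHS fell into 2 kinds of site of similar number. In all, 780 (46.3%, 43.9 to 48.7%) overlapped a promoter window and 904 were distal, of which 54 were in exons, 344 in introns and 506 between genes. The promoter share of the other DHS was 47.1%, and the difference of -0.82 percentage points had an interval from -3.23 to 1.61. The window decides this comparison, since within 1 kb of a TSS lay 41.4% of the isolated and 35.4% of the other DHS, a difference of 6.02 points (3.64 to 8.43), with 36.2% for DHS whose nearer gap was 10 to 50 kb. Intergenic DHS took 30.05% of the isolated and 25.7% of the other DHS, a difference of 4.33 points (2.14 to 6.59), and exonic ones were fewer by a difference of -2.05 points (-2.82 to -1.07). For comparison, promoter windows held 12.4% of the sequenced bases of these chromosomes, and intergenic sequence held 53.3%. Isolated DHS thus lay at promoters far more often than their bases would give, as the other DHS did.

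Score and width come from the same peak calls as the positions and are given as a description. The score is the authors' value for each peak, on a scale that is not stated. The median score of isolated DHS was 28.2 against 32.8 for the others, and the kinds of site differed in opposite directions. Promoter isolated DHS had a median score of 76.7 (quartiles 25.9 and 129) against 53.3 for other promoter DHS, which is close to the 76.0 of promoter DHS with a nearer gap of 10 to 50 kb (here called spaced DHS, 8193 of both kinds), and distal isolated DHS had 20.4 (14.2 and 31.3) against 24.6. Widths followed, with medians of 1326.5 against 939 bp at promoters (1336 bp for spaced ones) and 532 against 607.5 bp at distal sites. Among the 10% of all DHS with the highest scores lay 25.3% (22.3 to 28.4%) of the promoter isolated and 25.5% of the spaced promoter DHS but 1.22% (0.681 to 2.17%) of the distal isolated ones. Among the 10% with the lowest scores lay 6.67% of the promoter and 14.7% of the distal isolated DHS.

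**Figure D2:**
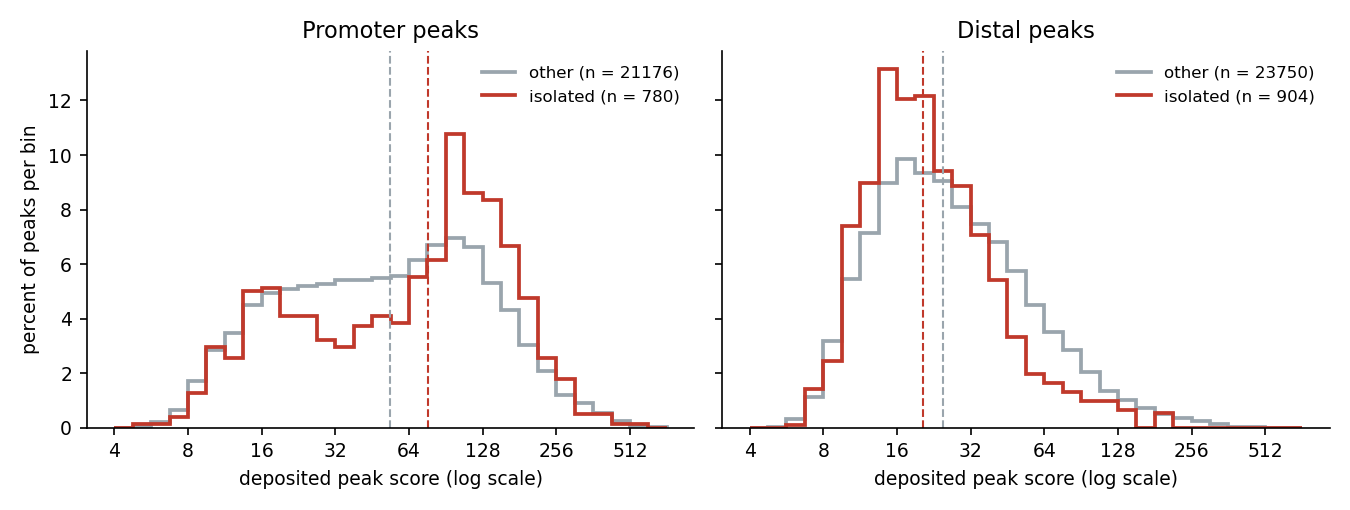
Percent of DHS per score bin (log scale) for promoter DHS on the left and distal DHS on the right, isolated in red and all others in grey, with dashed lines at the medians. Isolated promoter DHS had a higher median than the others (76.7 against 53.3), and isolated distal DHS a lower one (20.4 against 24.6).

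The higher score of isolated promoter DHS was seen per peak but not per gene. A gene whose promoter carries several DHS enters the comparison of peaks more than once, so the strongest promoter DHS of each protein-coding gene was also compared. For the 810 genes with an isolated promoter DHS its median score was 94.8. For the 11593 genes with promoter DHS that were not isolated it was 103, with a median of 2 promoter DHS per gene, and for the 5200 of them with a single promoter DHS it was 96.0. At CpG-rich promoters these medians were 105, 115 and 114 in the same sequence of groups, and at CpG-poor promoters 65.3, 77.0 and 65.1, so that against genes with a single promoter DHS the value of isolated ones was lower at the first and level at the second. The centre of an isolated promoter DHS was 159.5 bp from the nearest TSS at the median, close to the 149 bp of spaced promoter DHS, while the median over all other promoter DHS was 437 bp.

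Each of the 10 isolated DHS with the highest scores lay in a promoter window. The highest score, 589.97, belonged to a DHS 6234 bp wide at chr17:39979738-39985971, at the pseudogene AY036118 and 1031 kb from the next DHS. A RefSeq table for a later assembly lists an 18S ribosomal RNA related sequence beside AY036118. Ribosomal RNA genes exist in many copies that genome assemblies hold only in part, and whether reads of other copies add to this score was not tested. Others among the 10 were 1700064H15Rik with 420.88, the translation initiation factor gene Eif5b with 386.57, the solute carrier gene Slc10a7 with 385.69, the F-box gene Fbxo8 with 373.34, the glucosidase gene Ganc with 357.91, the phosducin-like gene Pdcl with 326.05 and Rpp30, a subunit of ribonuclease P, with 318.75. Apart from AY036118, these were at most 355 bp from their TSS, measured from the centre. Fbxo8 stood far from other DHS, with 3164 kb of sequence without a DHS before it and 877 kb after it.

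Among the widest isolated DHS after AY036118 were those at Tle1 (3435 bp), a Groucho-family corepressor, Rap2b (3388 bp), a small GTPase, and Fam46a (3301 bp). All 3 were CpG-rich promoters, and their scores were 166, 206 and 299. The most remote isolated DHS was the promoter of Dsel, a relative of dermatan sulfate epimerase, at chr1:113760666-113761892, whose nearer neighbour was 4382 kb away and whose score was 49.97. An intergenic DHS on chromosome 1 (score 26.86), 2130 kb from the TSS of Cntnap5b, had a nearer gap of 3267 kb. One on chromosome 5 (score 20.39), 163 kb from the TSS of Speer3, had 2824 kb. The promoters of Pacrgl (score 53.31) and of the zinc finger gene Zik1 (score 25.82) followed, with 2445 and 1926 kb. The weakest promoter member was at Gcnt2 with a score of 5.29.

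Among protein-coding genes, 12403 of 21418 had a promoter DHS and for 810 of those it was isolated, a share of 6.53% (6.11 to 6.98%). This share was 6.42% for genes with a CpG-rich TSS and 6.74% for genes without one. Of the genes with an isolated promoter DHS 64.9% had a CpG-rich TSS, against 66.1% of the genes whose promoter DHS were not isolated. The nearest TSS was that of a protein-coding gene for 693 of the 780 promoter isolated DHS, of a lincRNA for 27, a processed transcript for 18, a pseudogene for 12, a miRNA for 11 and an immunoglobulin-type V segment for 8. Protein-coding TSSs of both strands lay within 1 kb of the centre at 11.3% of the promoter isolated DHS, 10.4% of the spaced and 6.36% of all other promoter DHS. The isolated DHS at Eif5b also overlapped the gene Txndc9, and the one at Ganc also overlapped Tmem87a.

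The lists of marker and pathway genes gave few isolated promoter DHS. None of the 12 B cell genes with a promoter DHS, of the 10 housekeeping genes or of the 17 p53 target genes had an isolated one, where a count of 0 of 12, 10 and 17 allows shares of up to 24.2%, 27.8% and 18.4%. With 6.53% as the value over all genes, lists of this size cannot show a lower share. Of 15 replication and repair genes all had a promoter DHS, and it was isolated at Mcm3 with a score of 127.62 and at Mcm6 with 138.99, both subunits of the replicative helicase. Of 20 developmental transcription factor genes 7 had a promoter DHS, and 3 of these were isolated (42.9%, 15.8 to 74.95%). Those at Gata6 and Pax6 were weak, with scores of 18.63 and 11.22 and widths of 921 and 407 bp. None of 20 neuronal adhesion genes had a promoter DHS. By family, isolated promoter DHS were found at 3 of the 12 olfactory receptor genes (Olfr) with a promoter DHS (25%, 8.89 to 53.2%), out of 1106 genes, at 24 of 274 Zfp genes (8.76%, 5.96 to 12.7%), at 1 of 3 Pcdh genes, at 0 of 6 Cdh genes and at none of the 327 Vmn genes, which had no promoter DHS. The myeloid, erythroid and T cell lists held 0 isolated promoter DHS.

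The surroundings of isolated DHS held less G and C than those of other DHS, and a value for the whole genome was not computed. The GC content of the 100 kb around an isolated DHS had a median of 42.2% (quartiles 40.3 and 44.5%) against 45.6% (43.2 and 48.3%) around other DHS. It was 45.7% for DHS with a neighbour closer than 2 kb and 46.0% from 2 to 10 kb, and then fell with distance through 45.1% from 10 to 20 kb and 44.0% for gaps of 20 to 50 kb to 42.7% for 50 to 100 kb and 40.5% for 200 kb and more. In the central window promoter isolated DHS had a median of 61.0% against 54.0% for other promoter DHS and the same 61.0% for spaced ones, while distal isolated DHS had 47.0% against 48.0% for other distal and 47.7% for spaced distal DHS. Isolated DHS had on average 1.09 protein-coding genes with a TSS within 50 kb of the centre, others 2.40. Of the distal isolated DHS 53.8% had no such gene, against 20.3% of other distal DHS. Where genes were present near distal isolated DHS, 72.5% of them lacked a promoter DHS, against 18.4% near other distal DHS. The rule fixes much of these 3 values, since most genes with a promoter DHS within that distance would have ended the isolation. Genes without a promoter DHS, which the rule does not remove, were on average 0.459 per isolated DHS against 0.35 per other DHS. At distal sites the values were 0.497 against 0.306, with 0.361 for spaced distal DHS. At promoters they were 0.415 against 0.399, with 0.437 for spaced promoter DHS. The rule may favour regions with such genes, which was not tested.

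The positions of distal isolated DHS differed from those of other distal DHS, in part through the rule, which bars a DHS at any promoter within 50 kb. Their median distance to the nearest TSS of any kind was 39.3 kb against 16.1 kb for other distal DHS, and to the nearest protein-coding TSS 59.5 against 19.7 kb. More than 200 kb from any protein-coding TSS lay 13.4% of them, against 2.57% of the others. A pseudogene TSS was the nearest one for 9.18% against 4.65%, and a miRNA TSS for 4.87% against 2.79%. The 344 intronic isolated DHS were in host genes with a median length of 197 kb, against 104 kb for the other intronic DHS, and 35.8% (30.9 to 41.0%) were in genes of at least 300 kb, against 14.2% (13.5 to 14.9%). The part of the rule, which needs 50 kb without a DHS on each side, in this difference was not tested. Wwox, a gene at a common fragile site, held 4 isolated DHS. The genes Dock4, Fgfr2, Fndc3b, Pde4d, Scfd2, Stau2 and Syne1 held 3 each, among them a phosphodiesterase (Pde4d), a nuclear envelope protein (Syne1) and an RNA-binding protein (Stau2). All 3 DHS of Dock4, Fndc3b and Stau2 were isolated, while Wwox held 24 DHS in all. Fgfr2 is annotated here as 3009 kb long with 98 DHS, so its body spans other genes.

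Some isolated DHS were each other's neighbours. Consecutive ones share a gap that meets the rule, so runs arise in part from the rule. The share of members in runs that this alone would give was not computed. In 341 runs of at least 2 consecutive isolated DHS lay 818 of the 1684 (48.6%), and 8 runs had at least 5. The longest had 7 members, a length reached by 2 runs. One of these began at chr7:119165988-119167690 with the promoter of Usp47, a deubiquitinase gene, whose score was 104.28, and spanned 1.12 Mb. The next members were an intronic DHS of Usp47 with a score of 11.12, an intergenic one near the Wnt antagonist gene Dkk3 with 21.58 and the promoter of Micalcl with 20.52. Intronic DHS of Parva, which encodes a focal adhesion protein, with 16.38 and of Tead1, a transcription factor of the Hippo pathway, with 29.80 came next, and an intergenic DHS 64.1 kb from the circadian clock gene Arntl closed the run with 46.95. Only the first of the 7 exceeded a score of 50.

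**Figure D3:**
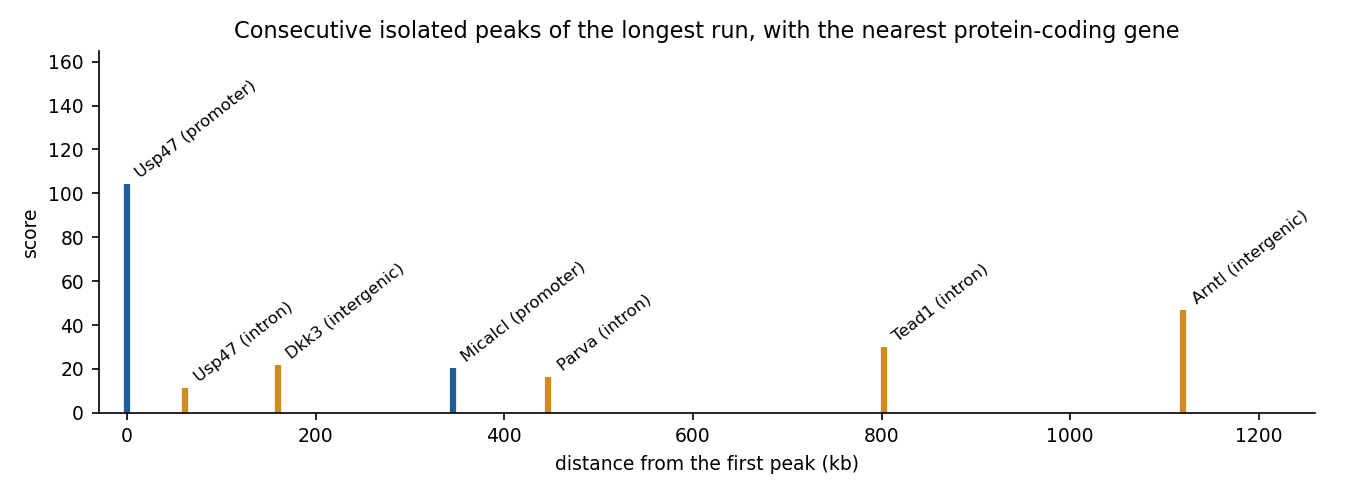
Score of the 7 isolated DHS in a run of the greatest length, by distance in kb from the centre of the first, with promoter DHS in blue, distal DHS in orange and the nearest protein-coding gene named. The promoter of Usp47 reached 104.28 and the other 6 were between 11.12 and 46.95.

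The distal isolated DHS with the highest scores were few, since 11 of 904 were among the 10% of all DHS with the highest scores (1.22%), against 2.05% of spaced and 3.07% of other distal DHS. The highest, 208.66, was in an exon of the lincRNA gene A830009L08Rik at chr13:91509455-91511709, 89.3 kb from the TSS of Ssbp2. The second, 201.98, lay between genes at chr11:108872759-108873628, 68.3 kb from Axin2, a feedback inhibitor of Wnt signalling. By eye its sequence reads like ribosomal RNA, which was not checked because no ribosomal reference was used. Whether reads of other copies add to this score was not tested either. The third, 197.60, lay at chr19:8093210-8095678, 53.9 kb from the organic anion transporter gene Slc22a27. The central sequences of the first and second were given above and held 19 and 27 CpG dinucleotides, where the median of distal isolated DHS was 4.

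The core word of CTCF, 12 letters with at most 1 mismatch on either strand, was present in the central 300 bp of 231 isolated DHS (13.7%, 12.2 to 15.4%). In windows of the same length 5 kb away it was present in 2.97%, a ratio of 4.61 (3.68 to 5.79). For other DHS this ratio was 2.73 (2.61 to 2.85). The share was higher at distal isolated DHS, of which 176 (19.5%, 17.0 to 22.2%) held the word against 12.1% of other distal DHS, a ratio of 1.61 (1.41 to 1.85). At promoters the shares were 7.05% and 7.82%. Windows 5 kb from promoter isolated DHS held the word in 3.15%, a ratio of 2.24 (1.54 to 3.26). The excess over other distal DHS was not particular to isolation, since 20.2% of spaced distal DHS held the word, with a ratio of isolated to spaced of 0.96 (0.83 to 1.11). Along the gap to the nearer neighbour the distal share was 6.16% below 2 kb, 17.1% from 2 to 10 kb, 19.9% from 10 to 20 kb, 20.6% from 20 to 50 kb, 21.2% from 50 to 100 kb, 18.8% from 100 to 200 kb and 12.8% (8.03 to 19.8%) from 200 kb on. Distal DHS in groups of 10 or more with gaps under 10 kb were at 8.47%.

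**Figure D4:**
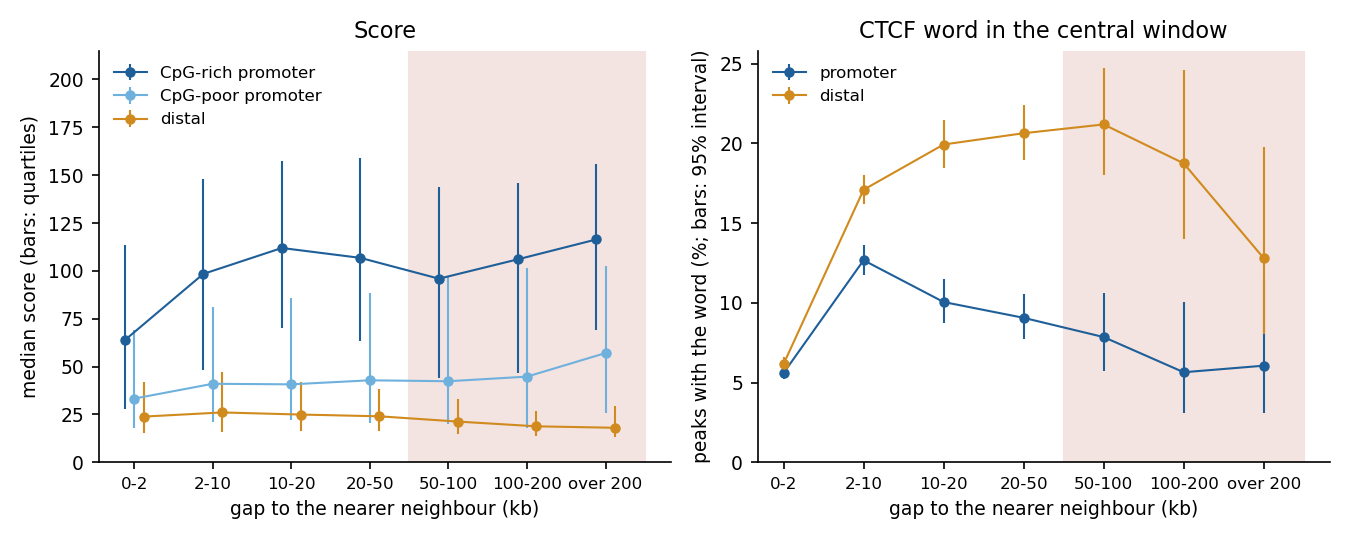
By the gap to the nearer neighbour (kb), with isolated DHS in the shaded range: left, median score with quartile bars for CpG-rich promoter, CpG-poor promoter and distal DHS; right, percent of promoter and distal DHS with the CTCF word in the central window, with 95% Wilson intervals. The distal share was 6.16% below 2 kb and 21.2% from 50 to 100 kb, and the distal median score was 21.3 from 50 to 100 kb and 18.1 from 200 kb on.

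Among distal isolated DHS those with the word had a higher median width and a higher median score. The 176 with the word had a median width of 786 bp and a median score of 23.2, the 728 without it 471 bp and 19.8. In 4 groups of equal size by score over all DHS, the word was present in 16.04% (12.7 to 20.1%) of the distal isolated DHS in the lowest group, 21.1% in the next, 28.1% (21.7 to 35.5%) in the third and 6.38% (2.19 to 17.2%) in the highest, where there were 3 of 47. In the lowest group spaced distal DHS were at 8.45% (7.13 to 10%) and all other distal DHS at 5.27%, so that weak distal DHS held the word more often when isolated, by intervals that did not overlap. In the other 3 groups the values of spaced DHS were 21.6%, 33.1% and 17.4%, with intervals that overlapped those of isolated DHS.

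The remaining 13 words were compared in the same windows on both strands. At promoters, the Sp1 word GGGGCGG was in 24.7% (21.8 to 27.9%) of isolated DHS against 16.8% of the others, the cyclic AMP response element TGACGTCA in 2.44% against 1.03% and the YY1 word AAGATGGCG in 2.18% against 1.28%. These ratios were 1.48 (1.30 to 1.67), 2.37 (1.49 to 3.76) and 1.70 (1.05 to 2.77), and against spaced promoter DHS they were 0.90, 1.02 and 0.74, with intervals that held 1. The p53 element was in 5 promoter isolated DHS (0.64% against 0.25%) and 1 distal one (0.11% against 0.40%). The Nrf1 word GCGCATGCG was in 1.28% of promoter isolated DHS against 1.07%, and in 2.72% of the spaced ones, a ratio of 0.47 (0.25 to 0.90). Besides the CTCF word (ratio to spaced promoter DHS 0.74, 0.56 to 0.97) and the E-box, it was the only promoter word whose interval against spaced DHS left out 1, and it rests on 10 isolated DHS.

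Words of B cell regulators were not detectably more frequent at isolated DHS. Over all isolated DHS against all others, the word GAGGAAGT of PU.1 was in 3.33% against 3.63%, ATGCAAAT of the octamer factors in 1.31% against 1.63%, the word CCCNNGGGA of EBF1 in 6.12% against 6.65% and GAAANNGAA of the IRF family in 9.68% against 9.20%. NF-kB with GGGNNTTCC gave 6.24% against 5.50%, Runx with TGTGGTT 6.47% against 6.82% and AP-1 with TGANTCA 6.59% against 7.68%. The intervals of these 7 ratios held 1. The E-box CAGCTG, bound by E2A and other factors, was less frequent, in 14.3% (12.7 to 16.1%) against 17.6%, with a ratio of 0.81 (0.72 to 0.91). Against spaced DHS this ratio was 0.80 (0.70 to 0.90), and it was 0.81 at promoters and 0.81 at distal sites, in both cases against all others. The sequence 5 kb away differed in the same way, with the E-box in 10.5% of windows around isolated and 13.96% around other DHS, so that over this background the ratio was 1.36 (1.17 to 1.58) for isolated and 1.26 (1.23 to 1.30) for other DHS. Over the same background PU.1 was at 1.30 (0.93 to 1.81) for isolated and 1.95 (1.82 to 2.09) for other DHS, and the octamer at 0.61 (0.38 to 0.98) and 1.08 (0.99 to 1.18), so both ratios were lower at isolated DHS, by intervals that narrowly did not overlap. For the Runx, AP-1, EBF1, NF-kB and IRF words the intervals of both ratios overlapped, for NF-kB only just (2.12, 1.62 to 2.77, against 1.54, 1.46 to 1.63). A match to a word is not evidence that the factor was bound, and the base composition of the windows was not accounted for.

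**Figure D5:**
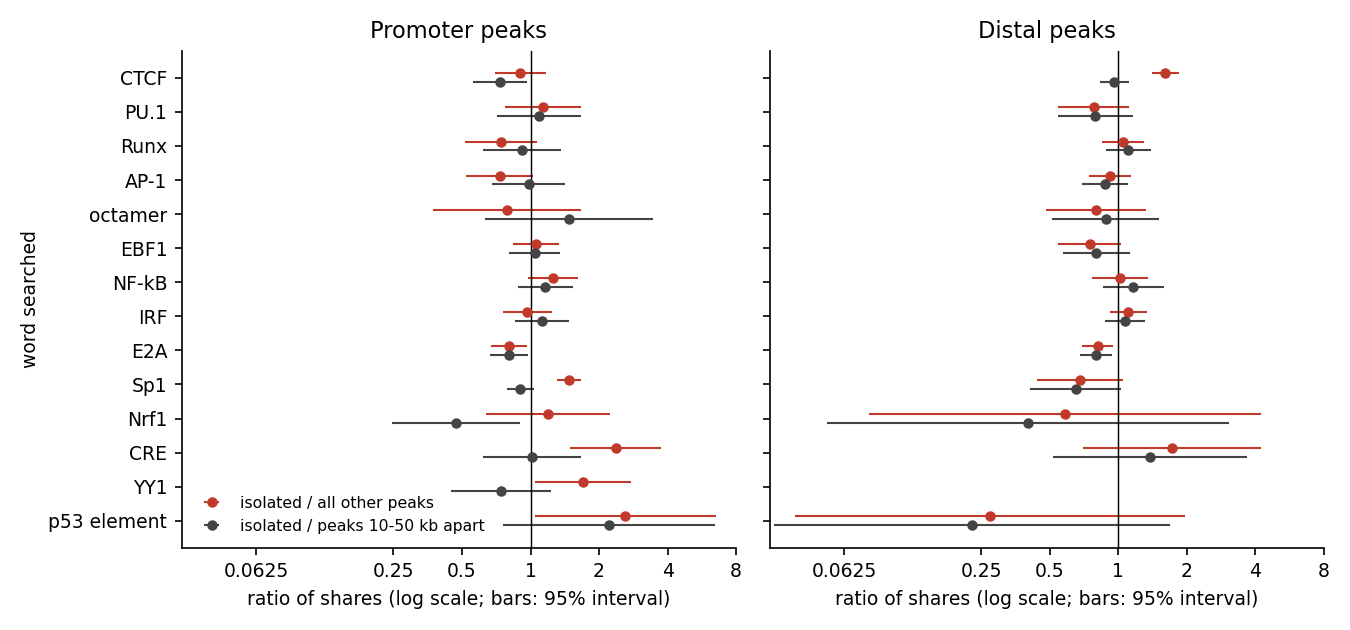
Ratio of the share of DHS with a word, isolated over all others (red) and isolated over spaced DHS with a nearer gap of 10 to 50 kb (dark grey), log scale with 95% intervals, at promoters on the left and distal sites on the right; the line marks a ratio of 1 and YY1 is left out at distal sites, where no isolated DHS held it. The E2A word lay below 1 in both panels (0.81), and the distal CTCF ratio was 1.61 against all others and 0.96 against spaced DHS.

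Windows made mostly of repeated sequence were few, and their share was higher at isolated than at other DHS. More than 50% of the central 31-base words occurred more than once in the assembly at 33 isolated DHS (2.0%, 1.40 to 2.74%) against 0.993% (0.905 to 1.09%) of the others and 0.867% of spaced DHS. Any repeated word was found in 16.6% against 17.9%. The lowest width of the list, 334 bp, was held by 46 isolated DHS (2.73%, 2.05 to 3.62%) against 1.69% of the others. The part of repeats and of peaks of the lowest width in the scores given here was not tested beyond the alternative without such peaks, which gave medians of 77.4 at promoters and 20.9 at distal sites.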

How the data were processed

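DNaseI-seq was measured in 1 library of splenic B cells, with 1 input library. Nuclei had been digested with DNaseI at several concentrations and a digest was chosen by quantitative PCR. Per the submitters' processing notes the tools were BWA 0.6.2 and SAMtools, on mm9. The peak names carry the word MACS, and the version and settings used for this library are not given in the sources used here. The deposited list gives a start, an end and a score for each peak, where the score is the authors' value and its scale is not stated. No read counts were given, so depth is unknown. Calls follow depth and threshold, and a missed weak peak would make its neighbours look isolated.

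Gaps ran from the end of a peak to the start of the next, and the first and last peaks of a chromosome were left out. TSSs were from GENCODE M1 (82148 on chromosomes 1 to 19), on the same build, and positions count from 1. A promoter window ran from 5 kb upstream to 2 kb downstream of a TSS. A TSS was CpG-rich when, over 1000 bp, GC reached 55% and CpG dinucleotides reached 0.6 of the number that the C and G content predicts. Words were searched on both strands of the central 300 bp; the p53 element was allowed 2 mismatches over 20 letters. Shares carry 95% Wilson intervals, differences Newcombe intervals and ratios log-normal intervals, and with 1 library no p-value was computed. Named were the 10 highest, 5 widest and 5 most remote members, those nearest the threshold, a longest run, the genes with the most members and list genes with an isolated promoter peak. Some of these members are not reported here. The distal peaks, the weakest member and the V segments were added after their values were seen. The members and lists were chosen with earlier results of these data known. Python 3.11.15, NumPy 2.4.6, pandas 2.3.3, SciPy 1.17.1, statsmodels 0.14.6 and numba 0.67.0 were used, and functions were tested on simulated data.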

Additional observations from a re-analysis of the deposited data

Results flagged for a closer look

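Chromosome X was outside the comparisons and held 93 isolated DHS of 864 (10.8%, 8.87 to 13.01%), a density of 0.558 per Mb. Of these, 62 (66.7%) were at promoters, with a median score of 46.1, and 31 were distal, with a median of 20.35. The CTCF word was in 2 of the 31 (6.45%, 1.79 to 20.7%).

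The first and last DHS of chromosomes 1 to 19 have a single neighbour and were left out. Of these 38, the gap was at least 50 kb at 10, with scores from 9.55 to 134.61, and 4 of the 10 were at promoters.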

How the results depend on the processing

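Of 64 recomputed values, 41 stayed inside the interval of the reported value or, for counts, within 1.5 times of it. With DHS below the median score removed first, isolated DHS had a median score of 76.3, a width of 1304 bp, a promoter share of 63.1%, a surrounding GC of 42.9% and a CTCF share of 10.96%. Merging DHS closer than 500 bp gave a median score of 31.3 and a width of 932 bp. A gap of 20 kb left 5388 isolated DHS with a score of 32.1, a width of 855 bp and a GC of 43.6%, and a gap of 100 kb left 642 with a GC of 41.5% and a CTCF share of 11.4%. With TSS windows of 1 kb on each side the promoter share was 41.4% (35.4% for other DHS, so that the difference then left out 0) and its CpG-rich share 59.2%, and with protein-coding TSSs only they were 42.3% and 58.2%. Surroundings of 20 and 500 kb gave a GC of 42.9% and 42.5%. The CTCF share was 5.11% with no mismatch, 21.4% over whole peaks and 19.5% at distal DHS. The higher median score of promoter than of distal isolated DHS was seen in all 8 selections of peaks, at 74.5 to 102 against 18.6 to 46.6. Leaving out the DHS at AY036118, an alternative added after the data were seen, moved no value past its interval. No paired analysis was possible because there was 1 DNaseI library. Unknown depth limits all values, since DHS missed for lack of reads change which ones count as isolated.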

Other observations

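Isolated DHS were also present in the arrays of antigen receptor V segments. B cells rearrange the immunoglobulin arrays to build their receptors, and T cells the T cell receptor arrays. This set was picked after its values were seen. The kappa light chain array, with 97 annotated V segments over 3.15 Mb of chromosome 6, held 34 promoter DHS whose nearest TSS was a V segment, and 7 of these were isolated (20.6%, 10.4 to 36.8%), where 3.55% of all 21956 promoter DHS were. Their scores were 120.64 at Igkv12-89, 47.42 at Igkv4-58, 40.57 at Igkv4-73, 29.49 at Igkv8-27, 21.58 at Igkv9-120, 14.26 at Igkv5-37 and 9.82 at Igkv8-21. The median of the 7 was 29.5, close to the 28.6 of the other 27, which ran from 11.85 to 160.06. V segments resemble each other, and more than 50% of the central 31-base words were repeated at 3 of the 7 and at 3 of the 27. In the heavy chain array on chromosome 12 there were 4 isolated DHS, all intergenic, with scores of 18.05, 11.22, 14.23 and 25.96. At the T cell receptor beta array, isolated DHS lay at Trbv12-1 (score 10.39) and near Trbv1 (30.60).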
